A study of Mus musculus with 2 samples.

Results

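Interferon chemokine hot spots were the tumor regions in which Cxcl9 and Cxcl10 were captured most. They were chosen from spatial transcriptomes of mouse pancreatic tumors, in which each barcoded spot covers a small area of a section, where cells of several types may lie. A spot was eligible with at least 10000 unique molecular identifiers (UMIs, one per captured probe pair) and less than 2% of them from 5 acinar genes (Cpa1, Ctrb1, Prss2, Pnlip and Cela2a). In each library, the 10% of eligible spots with the highest summed level of Cxcl9 and Cxcl10, in UMIs per 1000000 captured in the spot (CPM), were the hot spots. The 50% with the lowest sum were the low spots. By this rule 421 of 5772 spots were hot, 135 of 2220 in the library labelled KPC-shZEB1 and 286 of 3552 in the library labelled KPC-shV.

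KPC cells, derived from pancreatic tumors of a mouse model in which Pdx-1-Cre drives the disease, had been injected into the mouse pancreas. One condition carried a short hairpin RNA against Zeb1 (KPC-shZEB1), a transcription factor of the epithelial-mesenchymal transition, and the other the control vector (KPC-shV). The labels name no drug, whereas the study's text gives gemcitabine treatment for the same tissues. Each condition had 1 library, although the study's methods give 2 tumors per condition for this assay. Which of them a library covers, or whether it covers both, is not stated. For the orthotopic models the methods give 1 age range of young mice and 3 strains, C57BL/6J among them, without naming the host of these tumors. No replicate library therefore stands behind any difference, and condition, tumor and section cannot be told apart. The 95% intervals given below cover counting error only.

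The targeted gene was examined first. Zeb1 was at 11.7 CPM in KPC-shZEB1-labelled hot spots and at 10.95 CPM in KPC-shV-labelled ones, a log2 ratio of 0.09 with an interval from -0.27 to 0.46. In the low spots it was at 17.3 and 13.3 CPM. Zeb1 was thus not lower in the library labelled for its knockdown, and each direction between libraries below rests on the labels alone. A spot mixes injected tumor cells with host cells, so Zeb1 of the tumor cells alone was not measured.

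CXCL9 and CXCL10 are small secreted chemokines that bind the receptor CXCR3 on activated T cells and natural killer (NK) cells and draw them into tissue. Interferon-γ from those same lymphocytes acts through its receptor and the kinases JAK1 and JAK2 to induce both chemokines in macrophages, dendritic cells, endothelium and tumor cells. Type I interferons act through a separate receptor and induce Cxcl10 more than Cxcl9. In pancreatic cancer, known for few T cells and dense stroma, these chemokines are read as a trace of local interferon-γ.

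The promoters of both chemokines and of Gbp5 and Gbp2, guanylate-binding proteins with some of the highest ratios of hot over low spots, are shown because interferon-activated factors act at such sequences. Each runs from 250 bases before to 50 bases after the RefSeq start, on build GRCm38.p6. They are Cxcl9 (chr5:92328030-92328329, minus strand), Cxcl10 (chr5:92348840-92349139, minus strand), Gbp5 (chr3:142496684-142496983, plus strand) and Gbp2 (chr3:142620413-142620712, plus strand). Each is read along its gene's strand, and capitals mark matches to 3 motifs searched on both strands: the interferon-stimulated response element (ISRE, GAAA, any 2 bases and GAAA again), the gamma-activated sequence (GAS, TTCNNNGAA) and the NF-kappaB consensus.
Cxcl9: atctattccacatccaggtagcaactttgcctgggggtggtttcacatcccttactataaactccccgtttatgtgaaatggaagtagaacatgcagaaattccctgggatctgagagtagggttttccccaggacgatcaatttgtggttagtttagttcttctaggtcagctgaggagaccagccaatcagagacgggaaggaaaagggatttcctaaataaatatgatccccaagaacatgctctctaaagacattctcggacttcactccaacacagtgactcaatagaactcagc
Cxcl10: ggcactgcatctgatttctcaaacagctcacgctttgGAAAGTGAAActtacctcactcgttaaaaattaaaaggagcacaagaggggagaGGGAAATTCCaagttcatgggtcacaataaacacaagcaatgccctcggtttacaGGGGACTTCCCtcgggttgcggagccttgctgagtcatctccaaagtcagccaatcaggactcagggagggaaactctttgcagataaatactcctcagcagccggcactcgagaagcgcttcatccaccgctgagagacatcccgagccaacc
Gbp5: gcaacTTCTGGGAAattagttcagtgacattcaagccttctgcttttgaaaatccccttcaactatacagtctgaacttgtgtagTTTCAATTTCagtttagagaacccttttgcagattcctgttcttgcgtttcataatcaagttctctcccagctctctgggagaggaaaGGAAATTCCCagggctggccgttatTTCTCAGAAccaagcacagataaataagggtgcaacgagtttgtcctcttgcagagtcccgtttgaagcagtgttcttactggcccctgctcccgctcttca
Gbp2: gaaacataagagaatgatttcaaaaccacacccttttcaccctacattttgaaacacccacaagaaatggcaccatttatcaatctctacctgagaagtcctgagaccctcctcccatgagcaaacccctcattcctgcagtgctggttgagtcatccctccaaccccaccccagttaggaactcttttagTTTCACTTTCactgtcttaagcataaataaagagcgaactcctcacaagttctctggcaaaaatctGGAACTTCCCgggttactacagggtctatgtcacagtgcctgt

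The Cxcl10 promoter held an ISRE 213 bases before the start and NF-kappaB matches at 159, 104 and 103 bases before it, the latter pair overlapping. Gbp5 held an ISRE at 165 bases, GAS matches at 245 and 52 bases and an NF-kappaB match at 77 bases before its start. Gbp2 held an ISRE 59 bases before its start and an NF-kappaB match 7 bases after it. None of these letters was found in the Cxcl9 window, which says nothing of sites outside it. Of all 32841 mouse promoters of this length, 3.44% held the ISRE, 8.3% the GAS and 8.46% the NF-kappaB consensus. Among the measured genes of the lists described below, the ISRE was in 40.9% of 22 promoters of interferon-γ inducible genes. These promoters belonged to 18 genes, of which 9 held the ISRE. It was in 54.5% of 22 promoters of type I interferon-stimulated genes, which belonged to 19 genes, of which 11 held it. The GAS was in 45.5% of the former and 13.6% of the latter.

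Hot and low spots overlapped in depth. The median of hot spots was 61741 UMIs (32660 to 102599) under the KPC-shZEB1 label and 57082 UMIs (11511 to 123632) under the KPC-shV label. Low spots had medians of 54040 UMIs (10224 to 117825) and 57192.5 UMIs (10262 to 146482). Across eligible spots the Spearman correlation of the pair's level with depth was 0.327 and 0.105, given as a description over spots of 1 library each. The median number of genes per hot spot was 9082 and 9098, and in low spots 8841.5 and 8851. Summed over spots, the hot groups held 8551411 and 16072104 UMIs and the low groups 36826830 and 77489854. The limits left 1349 and 2857 eligible spots; 858 and 305 spots failed the acinar limit alone, and 13 and 390 had too few UMIs. Spots outside the limits held 2.68% and 0.483% of the libraries' Cxcl9 and Cxcl10 UMIs.

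The pair's summed level, which chose the spots, is given as a description. Per spot it had a lowest value of 2654, a median of 3219.9 and a highest of 9467 CPM in KPC-shZEB1-labelled hot spots, and 1113, 1642 and 5861 CPM in those labelled KPC-shV. The highest spot just outside was at 2649 and 1112 CPM. Low spots had medians of 161 and 38 CPM and reached 807 and 154 CPM. Hot spots held 31.8% and 45.5% of the eligible spots' pair UMIs in 10.5% and 9.95% of their total UMIs. No UMI of either chemokine was found in 95 and 345 eligible spots.

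The limit lay far higher in the library labelled KPC-shZEB1. There, 545 spots (40.4%) met the KPC-shV limit, whereas 42 spots (1.47%) of the library labelled KPC-shV met the KPC-shZEB1 limit. A difference between the hot spots of the libraries therefore includes a difference in how much of the chemokines a hot spot had to hold, and comparisons at matched levels are given below.

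Cxcl9 pooled over hot spots stood at 3052 CPM against 232 CPM in low spots of the library labelled KPC-shZEB1 (log2 ratio 3.72), and at 1508 against 37.3 CPM in that labelled KPC-shV (5.34). Cxcl10 stood at 542 against 46.8 CPM (3.53) and at 336 against 13.6 CPM (4.62). Per hot spot, Cxcl9 ran from 1223 through a median of 2830.1 to 7865 CPM in the former library and from 325 through 1315 to 5309.8 CPM in the latter. Cxcl10 ran from 57.7 through 409 to 3185 CPM and from 0 through 259.6 to 3729.8 CPM, with 2 hot spots of the library labelled KPC-shV without a Cxcl10 UMI. Cxcl9 supplied a median of 87.9% of a hot spot's pair UMIs (35.2 to 97.9) and 85.3% (12.2 to 100). This is a share of UMIs, since the probes of the genes need not capture equally. Cxcl10 exceeded Cxcl9 in 4 and 7 hot spots.

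**Figure D1:**
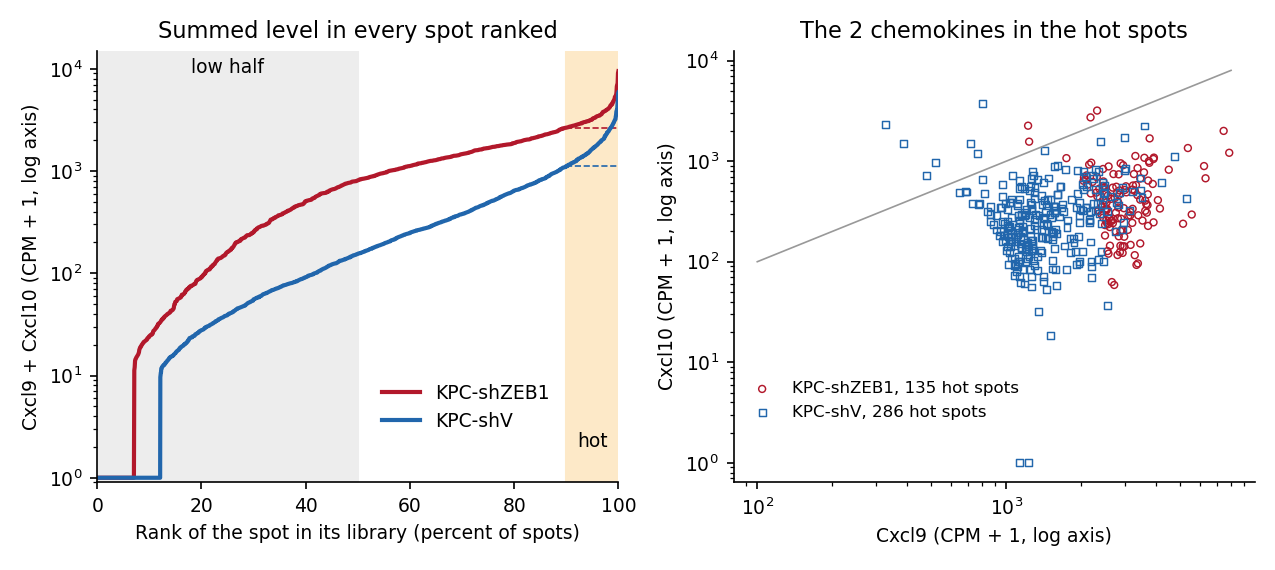
The left plot gives the summed CPM of Cxcl9 and Cxcl10 (plus 1, log axis) of every eligible spot against its rank in percent, with the lowest 50% shaded gray, the hot spots shaded orange and dashed lines at the limits of 2654 CPM (KPC-shZEB1) and 1113 CPM (KPC-shV). The right plot gives Cxcl10 against Cxcl9 (CPM plus 1, log axes) in the 135 and 286 hot spots, and the 4 and 7 spots above the gray line of equal level held more Cxcl10 than Cxcl9.

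The chemokines were also read apart from each other, so that the measured gene did not choose the spots. With the spots chosen on Cxcl9 alone, Cxcl10 was at 461 CPM in hot against 58.6 CPM in low spots (log2 ratio 2.98) and at 274 against 21.3 CPM (3.68). With Cxcl10 alone as the choice, Cxcl9 was at 2306 against 410.2 CPM (2.49) and at 1157 against 111 CPM (3.38). Thus each was higher where the other was high, in both libraries. When a random 50% of each spot's UMIs chose the spots, the remaining UMIs gave log2 ratios of 3.63 and 5.01 for Cxcl9 and 3.42 and 4.43 for Cxcl10. Across eligible spots the Spearman correlation of the chemokines was 0.758 and 0.621, given as a description over spots that share a library and a slide.

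Interferon-γ itself was captured in few spots. Ifng, the cytokine made by T and NK cells, was at 18 CPM in hot and 2.23 CPM in low spots of the library labelled KPC-shZEB1 (log2 ratio 3.02, interval 2.62 to 3.42). In the library labelled KPC-shV it was at 7.09 against 1.02 CPM (2.80, interval 2.37 to 3.23). At least 1 Ifng UMI was found in 37% of hot against 10.5% of low spots, and in 22% against 5.39%. With each spot thinned to 10000 UMIs, these shares were 12.6% against 2.23% and 4.2% against 1.33%, and a second thinning gave 8.04% against 0.91% for the latter. Of 7 genes not expected in this tissue, such as the sperm gene Prm1, none exceeded 1.48% and 1.4% of thinned hot spots, or 1.48% and 2.8% in the second thinning, which gives the background of stray signal. The Ifng shares of hot spots lay above this background in both libraries. A single spot of the library labelled KPC-shZEB1 held 48 of the 154 Ifng UMIs in hot spots (31.2%), and without it Ifng was at 12.5 CPM (2.49). In bulk regions of this kind, fewer cells of a type and less RNA per cell cannot be told apart.

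A gene was counted as past 2-fold when its pooled level differed at least 2-fold and reached 10 CPM in the higher group. Under the KPC-shZEB1 label, 230 of 10087 genes that reached this level and so were tested (2.28%) were past 2-fold higher in hot spots and 538 (5.33%) past 2-fold lower. In that labelled KPC-shV, 313 of 9925 (3.15%) were higher and 123 (1.24%) lower. Genes higher in both numbered 90 of 9624 (0.935%), which were 39.1% and 28.8% of the calls of each library. Genes lower in both numbered 42 (0.436%), which were 7.81% and 34.1% of the calls. These shares give the background for the lists below, and since the rule used the same contrast, nothing is read from a list's count beyond its description. A gene could also reach 10 CPM through the hot spots alone, which favors higher calls in lists of low level. The median log2 ratio over all tested genes was 0.0047 and -0.017.

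The receptors and kinases of the interferon pathway were at nearly the same level in hot and low spots. The list of interferon receptors and Janus kinases summed to 916 against 836 CPM (log2 ratio 0.13) and 798 against 755 CPM (0.08). Ifngr1, the ligand-binding chain of the interferon-γ receptor, had log2 ratios of 0.10 and 0.03, and Ifngr2, the signaling chain, 0.13 and -0.10. Jak2 stood at 148 against 108 CPM (0.46) and at 119.7 against 112 CPM (0.10). None of 7 genes tested on this list was past 2-fold in either library. Of 9 inducers of interferon-γ, 4 were high enough in level to be tested and 1 was past 2-fold higher in each library, Il1b in that labelled KPC-shZEB1 (1.10, against -0.14 in the other) and Il15, which sustains T and NK cells, in that labelled KPC-shV (1.09, against 0.54).

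Interferon-γ inducible genes stood higher in hot spots almost as a whole. Of 29 measured, 26 were past 2-fold higher under the KPC-shZEB1 label and 27 under the KPC-shV label, with median log2 ratios of 1.75 and 2.65. Their sum was 10792 against 3285 CPM and 7427 against 1358 CPM. Per hot spot the sum had a lowest value of 6103, a median of 10276 and a highest of 22880.3 CPM in the former library, and 2663, 7509 and 15973 CPM in the latter. The groups overlapped little. Every hot spot lay above the low spots' median (3072 and 1294 CPM), and 57 low spots (8.46%) and 79 (5.53%) reached the lowest hot spot.

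Transcription factors of the response came first in order of action. Irf1, which interferon-γ induces and which in turn drives many interferon genes, was at 542 against 217 CPM in the KPC-shZEB1-labelled library (log2 ratio 1.32) and at 383 against 107 CPM in the KPC-shV-labelled one (1.84). Ciita, the master regulator of major histocompatibility complex (MHC) class II genes, had 1.33 and 2.30. Irf8, a factor of myeloid and dendritic cells, was at 63 against 38 CPM (0.73) and at 91.7 against 24.8 CPM (1.88), so that it passed 2-fold in the library labelled KPC-shV alone. Socs1, an inhibitor of the Janus kinases that interferons induce, was at 169 against 39.5 CPM (2.10) and at 147 against 17.8 CPM (3.04).

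The guanylate-binding proteins, GTPases that attack vacuoles of intracellular pathogens, were past 2-fold higher in 9 of 9 cases in both libraries. As a list they summed to 3781 against 842 CPM (log2 ratio 2.17) and 2316 against 258 CPM (3.17). Gbp2 was at 1588 against 311 CPM (2.35, interval 2.32 to 2.39) and at 861 against 67.2 CPM (3.68, interval 3.63 to 3.73). Its hot-spot values ran from 426 through 1516 to 3649 CPM and from 74.2 through 791 to 2471 CPM, with low-spot medians of 242 and 50.1 CPM. Gbp5, a member that supports inflammasome assembly, was at 194 against 35.5 CPM (2.45) and at 80.8 against 5.69 CPM (3.83). Gbp2b and Gbp4 had the highest ratios of the family, 2.69 and 4.74 for Gbp2b and 2.82 and 4.14 for Gbp4. Near-identical neighbors such as Gbp2 and Gbp2b, or Gbp6 and other family members, can share probe signal, and their separate values are uncertain.

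Immunity-related GTPases, a related antimicrobial family, followed the same pattern. Iigp1 was at 739 against 177 CPM (log2 ratio 2.06) and at 633 against 40.6 CPM (3.96). Igtp had log2 ratios of 1.81 and 2.69, Ifi47 of 1.35 and 2.30, Irgm1 of 1.30 and 2.20 and Irgm2 of 1.29 and 2.12. The protease inhibitor genes Serpina3g (1.55 and 3.97) and Serpina3f (1.90 and 4.99) were low in the low spots of the library labelled KPC-shV, at 24.6 and 2.17 CPM. In hot spots these genes had similar levels in both libraries, 403 and 386 CPM for Serpina3g and 71.7 and 68.7 CPM for Serpina3f.

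Among the named genes, Ido1, Cd274 and Pdcd1lg2 are known to restrain T cells, but they form no list of their own here. The checkpoint list, of 9 genes, had log2 ratios of 0.76 and 0.78, short of 2-fold in both libraries. Ido1, which depletes tryptophan, was at 86.3 against 13.2 CPM (log2 ratio 2.71) and at 29.1 against 2.49 CPM (3.54). It was detected in 111 of 135 and 165 of 286 hot spots, with medians of 59.2 and 14.7 CPM. Wars, a tryptophanyl-tRNA synthetase, had log2 ratios of 1.75 and 1.25. Cd274, which encodes the checkpoint ligand PD-L1, was at 151 against 48.5 CPM (1.64) and at 122 against 43.7 CPM (1.48). Its median per spot was 132 in hot against 34.9 CPM in low spots, and 105 against 32 CPM. Pdcd1lg2, which encodes the related ligand PD-L2, was at 38.9 against 11.8 CPM (1.73) and at 31.4 against 7.43 CPM (2.08). Both ligands of PD-1 were thus past 2-fold higher in both libraries.

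Exceptions within the list were few. Nos2, the inducible nitric oxide synthase of activated macrophages, was at 81 against 18.1 CPM (log2 ratio 2.16) in the library labelled KPC-shZEB1, but at 51.6 against 49.8 CPM (0.05, interval -0.06 to 0.16) in that labelled KPC-shV. The latter value was 0.69 without the 10% most hypoxic spots and -0.32 with the top 20% of spots as hot. Aim2, a sensor of cytosolic DNA, was not past 2-fold in either (-0.35 and 0.18). Fcgr1, a high-affinity Fc receptor of monocytes and macrophages, had log2 ratios of 0.12 and 1.45.

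**Figure D2:**
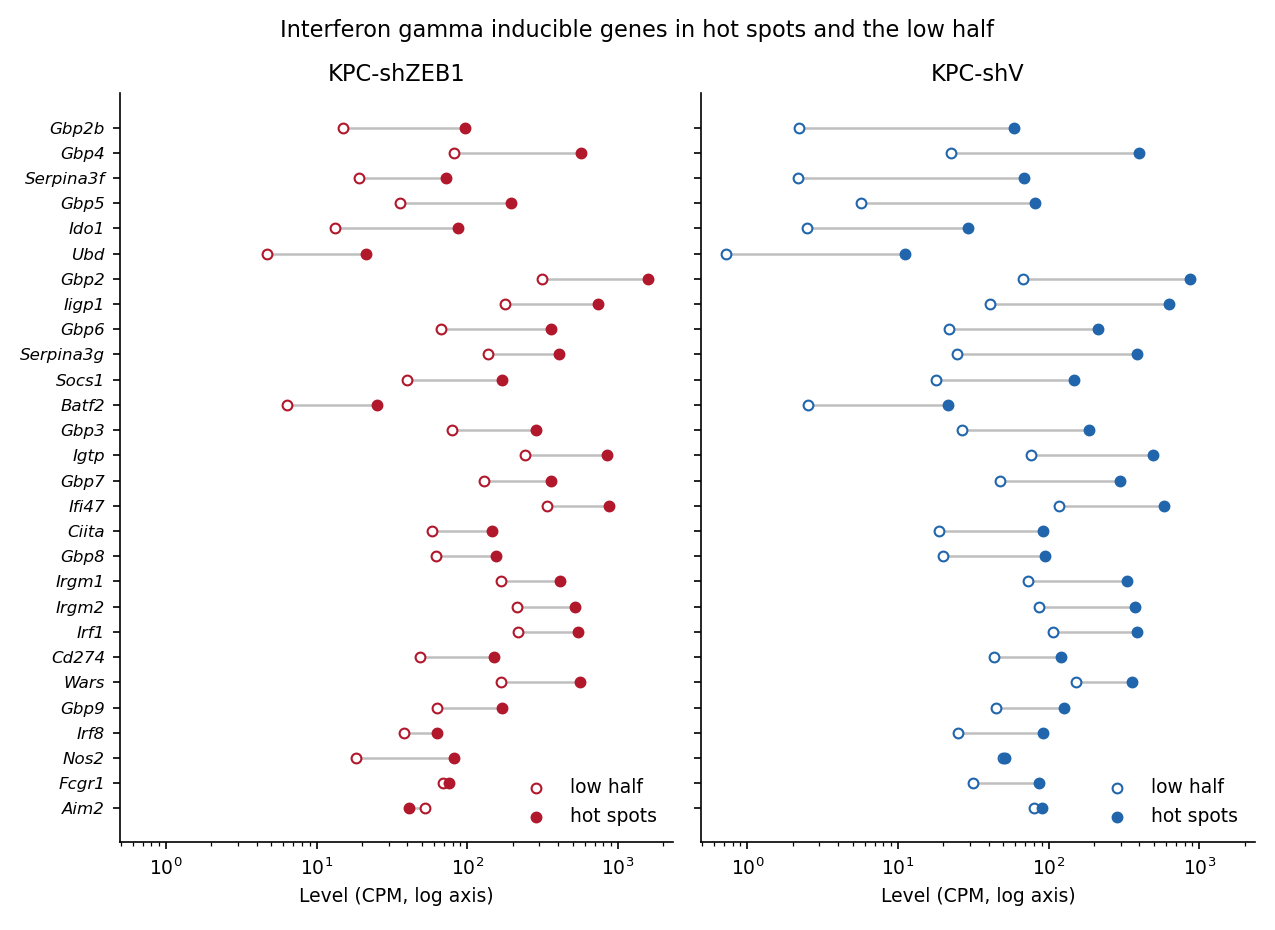
Pooled CPM (log axis) of 28 interferon-γ inducible genes in the low spots (open circles) and the hot spots (filled circles) of each library, from Gbp2b to Aim2. Filled circles lie to the right of open ones for nearly all genes, while Nos2 in the library labelled KPC-shV nearly coincides (51.6 and 49.8 CPM).

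Type I interferon-stimulated genes, which act mainly against viruses, were higher in hot spots by less. Their sum was 3278 against 1785 CPM (log2 ratio 0.88) and 3339 against 1858 CPM (0.85). Of 24 genes tested, 5 and 9 were past 2-fold higher, with median log2 ratios of 0.69 and 0.90. Bst2, which tethers budding virus, gave 32.4% and 33.2% of the list's UMIs and had ratios of 0.98 and 0.68. Zbp1, a nucleic acid sensor, was past 2-fold in both, at 401 against 171 CPM (1.23) and 300.4 against 79.9 CPM (1.91). Rsad2, which encodes viperin, was at 26.1 against 23.8 CPM (0.13) in the library labelled KPC-shZEB1 and at 75.7 against 19.6 CPM (1.95) in that labelled KPC-shV. With spots chosen on Cxcl9 alone the latter ratio was 0.47, and 1 spot held 16.2% of the hot spots' Rsad2 UMIs. Ifit3 showed a like split, with log2 ratios of 0.23 and 2.21.

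Antigen presentation formed the next group. MHC class I genes and their loading machinery summed to 15935 against 10078 CPM (log2 ratio 0.66) and 14626 against 8116 CPM (0.85), with 5 and 13 of 19 past 2-fold higher. The peptide transporter gene Tap1 was at 476 against 197 CPM (1.27) and at 287 against 108 CPM (1.41). Psmb9, an immunoproteasome subunit, had log2 ratios of 1.18 and 1.63, and Nlrc5, the transactivator of class I genes, 1.08 and 1.39. The class I heavy chain H2-K1 (0.57 and 0.92) and its light chain B2m (0.54 and 0.47) were not past 2-fold in either. Tap1, Psmb9 and Nlrc5 thus had higher ratios than H2-K1 and B2m in both libraries.

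MHC class II genes, used mainly by macrophages, dendritic cells and B cells, differed between the libraries in their low spots. In the library labelled KPC-shV, 8 of 8 were past 2-fold higher, and the list summed to 12422 against 3371 CPM (log2 ratio 1.88). In the other, none of 9 was past 2-fold higher and 1 was lower, with sums of 16931 against 10436 CPM (0.70). Cd74, the invariant chain, had a per-spot median of 8835 in hot against 5012 CPM in low spots under the KPC-shZEB1 label, and of 7312 against 1142 CPM in that labelled KPC-shV. H2-Ob, which modulates peptide loading in B cells, was the gene past 2-fold lower (-1.63). Its ratio was -0.57 without the 10% of spots richest in B cell genes.

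T cell genes were low in level and higher in hot spots. The list summed to 374 against 233 CPM (log2 ratio 0.68) and 193 against 88.5 CPM (1.13). Of its 14 genes, 9 and 6 reached 10 CPM in the higher group, and 3 and 5 of these were past 2-fold higher. Some, such as Cd3e in the library labelled KPC-shV, reached that level in the hot spots alone, so nothing is read from this count. Cd3e, a chain of the T cell receptor complex, was at 49.1 against 23.5 CPM (1.06) and at 17.2 against 2.66 CPM (2.70). Cd8a, the coreceptor of cytotoxic T cells, was at 12.4 against 4.56 CPM (1.44) and at 4.11 against 0.981 CPM (2.07). Trbc1, a constant region of the T cell receptor beta chain, went against the list, at 26.7 against 38 CPM (-0.51) and 59.5 against 58.1 CPM (0.03). Its near-identical copy Trbc2 had log2 ratios of 0.89 and 2.48, and probes may not separate these genes. Per spot the list's median was 301 in hot against 167 CPM in low spots, and 175 against 52.2 CPM, and 86.7% and 88.1% of hot spots lay above the low median.

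Cytotoxic and NK genes summed to 77.1 against 38 CPM (log2 ratio 1.02) and 68 against 15.7 CPM (2.11). Of 12 genes on the list, 3 and 2 reached 10 CPM in the higher group, and each of these was past 2-fold higher. Since a gene could reach that level through the hot spots alone, nothing is read from this count. Gzma, a granule protease, was at 15.4 against 7.49 CPM (1.04) and at 22.5 against 3.18 CPM (2.83). Prf1, the pore-forming protein perforin, had log2 ratios of 1.89 and 2.49, the former 1.52 without 1 spot that held 23.3% of its hot-spot UMIs. Cxcr3, the receptor of both chemokines, had log2 ratios of 0.57 and 1.87. A Cxcr3 UMI was found in 25.9% of hot against 14.8% of low spots and in 12.2% against 3.71%, and after thinning in 5.19% against 4.01% and 4.2% against 0.98%. Dpp4, a protease that clips CXCL10, had ratios of -0.30 and 0.34. Cxcr6, the receptor of CXCL16, had 0.03 and 1.92, while Cxcl16 itself, the chemokine of interest to the study, was at 642 against 381 CPM (0.75) and 607 against 399 CPM (0.61).

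Other chemokines divided into those past 2-fold higher in both libraries, in 1 of them and in neither. Of 20 and 21 tested, 11 and 6 were past 2-fold higher. Ccl5, made by cytotoxic T cells and macrophages, was at 485 against 159 CPM (log2 ratio 1.60) and at 246 against 25.1 CPM (3.29). Its hot-spot medians were 223 and 125 CPM and its highest spots 7909 and 3523 CPM, so a few spots held much of it. Xcl1, a T and NK cell product that attracts cross-presenting dendritic cells, was at 52 against 10.4 CPM (2.32) and at 16.3 against 1.42 CPM (3.52). Ccl1, a ligand of CCR8, was at 20.7 against 4.13 CPM (2.33) and at 7.84 against 0.981 CPM. In the library labelled KPC-shV it was under 10 CPM and so was not tested. The CCR4 ligands Ccl17 (1.09 and 1.75) and Ccl22 (1.03 and 1.40) were also past 2-fold higher in both.

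Neutrophil-attracting CXCR2 ligands were higher in hot spots of the library labelled KPC-shZEB1 but not in those labelled KPC-shV. Cxcl3 was at 132 against 19.1 CPM (log2 ratio 2.80) and at 46.6 against 71.3 CPM (-0.61). Cxcl5 had log2 ratios of 1.93 and -0.02, and Cxcl1 of 1.56 and -0.34. The monocyte attractant Ccl8 was the reverse, at 422 against 561 CPM (-0.41) and at 336 against 115 CPM (1.54). Cxcl12, a stromal chemokine, was at 11 against 38.5 CPM (-1.81) in the library labelled KPC-shZEB1, a ratio that was -0.47 without the spots richest in B cell genes, and at 0.40 in the other.

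Adhesion and cell death genes had intermediate ratios. Icam1, the endothelial and epithelial ligand of lymphocyte integrins, was at 105 against 32.1 CPM (log2 ratio 1.71) and at 60.6 against 22.5 CPM (1.43). Vcam1 had log2 ratios of 0.68 and 0.72. The adhesion list had 2 of 6 and 4 of 7 genes past 2-fold higher. Tnfsf10, the death ligand TRAIL, was at 40 against 12.2 CPM (1.71) and at 18 against 4.09 CPM (2.14). Gsdmd, the pore protein of pyroptosis, had ratios of 0.59 and 0.75. The cell death list as a whole had 2 and 3 of 11 genes past 2-fold higher.

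The cell types around the chemokines, read through marker lists, differed between the libraries. Fibroblast genes were lower in hot spots of the library labelled KPC-shZEB1, at 3355 against 12321 CPM (log2 ratio -1.88; 8 of 9 past 2-fold lower). In that labelled KPC-shV they were at 7367 against 5848 CPM (0.33; 1 of 9, Lum, past 2-fold lower). Col1a1, a fibrillar collagen and the most abundant gene of the list (36% and 35% of its UMIs), was at 1207 against 4015 CPM (-1.73) and at 2579.5 against 1914 CPM (0.43). Dcn, a matrix proteoglycan, was at 43.1 against 317 CPM (-2.88) and 55.6 against 77 CPM (-0.47). Only 7 of 135 hot spots (5.19%) of the library labelled KPC-shZEB1 lay above the low spots' median of the list, against 215 of 286 (75.2%) in that labelled KPC-shV. Without the 10% of spots richest in fibroblast genes, the list's ratios were -1.23 and 0.73.

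Endothelial genes were at 166 against 259.6 CPM (log2 ratio -0.64) in the library labelled KPC-shZEB1 and at 447 against 187 CPM (1.26) in that labelled KPC-shV. Plvap, a protein of vessel fenestrae and the list's most abundant gene (51.7% and 56.5%), was at 85.9 against 123 CPM (-0.52) and at 253 against 83.9 CPM (1.59). Cdh5, the cadherin of endothelial junctions, had log2 ratios of -1.05 and 0.95. Of the hot spots, 43.7% and 88.5% lay above the low spots' median of the list. Without spots rich in B cell genes, the ratio in the library labelled KPC-shZEB1 was -0.15.

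Macrophage genes were level in the library labelled KPC-shZEB1, at 4364 against 4623 CPM (log2 ratio -0.08; 0 of 12 past 2-fold). In that labelled KPC-shV they were at 4456 against 2343 CPM (0.93; 3 of 12 higher). C1qa, a complement gene of tissue macrophages, had log2 ratios of 0.06 and 1.08, and Apoe, the most abundant marker (32% and 36.4%), -0.33 and 0.96. Mrc1, the mannose receptor, was at 115 against 227 CPM (-0.99) and 155 against 139 CPM (0.15). The hot spots of both libraries held nearly equal macrophage signal, and the low spots differed. Dendritic cell genes had summed log2 ratios of 0.37 and 0.48, short of 2-fold. Of 12 on the list, 8 and 5 were tested, and 4 and 4 of these were past 2-fold higher. Among them was Clec9a, a marker of cross-presenting dendritic cells (1.18 and 2.37), whereas Xcr1, the receptor of XCL1 on the same cells, had -0.27 and 0.57.

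Neutrophil genes were at 256 against 175 CPM (log2 ratio 0.55; 4 of 5 past 2-fold higher) in the library labelled KPC-shZEB1 and at 211 against 413 CPM (-0.97; 3 of 6 past 2-fold lower) in that labelled KPC-shV. S100a8 was at 60 against 27.7 CPM (1.11) and at 49.1 against 100.5 CPM (-1.03), and S100a9, its partner in calprotectin, at 64.2 against 29.5 CPM (1.12) and at 70.1 against 186 CPM (-1.41). These 2 genes were past 2-fold in opposite directions, as were 5 others in reverse (Clec14a, Fabp4, Rasip1, Ighg3 and Ighj1). Of the hot spots, 72.6% and 22% lay above the low spots' median of the neutrophil list.

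Hypoxia-inducible genes were lower in hot spots of both libraries, by more in that labelled KPC-shV. Their sum was 769.8 against 1171 CPM (log2 ratio -0.61; 4 of 9 past 2-fold lower) and 870.3 against 2473 CPM (-1.51; 9 of 9). Vegfa, the angiogenic growth factor, was at 23.7 against 49.4 CPM (-1.06) and at 79.4 against 221 CPM (-1.48). Adm, the vasodilator adrenomedullin, was at 2.57 against 12.2 CPM (-2.25) and at 4.79 against 35 CPM (-2.87). Slc2a1, the glucose transporter, had log2 ratios of -0.30 and -1.41. Only 12 of 286 hot spots (4.2%) of the library labelled KPC-shV lay above the low spots' median of the list, against 54 of 135 (40%) in that labelled KPC-shZEB1. Without the 10% most hypoxic spots the latter library's ratio was -0.09.

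Tumor epithelial genes were at 6329 against 4971 CPM (log2 ratio 0.35) and at 5653 against 6842 CPM (-0.28), and proliferation genes differed by -0.08 and 0.12. B cell genes were past 2-fold lower in 4 of 4 in the library labelled KPC-shZEB1, at 21.8 against 88.3 CPM (-2.02), and -0.38 without the spots richest in them; in the other library they were at 16.8 against 22.6 CPM (-0.43). Plasma cell genes had ratios of -1.52, or -0.42 without the spots richest in B cell genes, and 0.17. Xbp1, a secretory-cell transcription factor, gave 89.4% and 90.1% of that list's UMIs in hot spots. Islet genes were at 6.31 against 182 CPM (-4.85) and 14.9 against 14.1 CPM (0.07). Under the KPC-shZEB1 label their median per spot was 0 CPM in hot and in low spots, while the highest low spot reached 54888 CPM. An islet UMI was found there in 41 of 135 hot and 268 of 674 low spots. Acinar genes, limited by the rule itself, were at 1276 against 2925 CPM (-1.20) and 127 against 326 CPM (-1.36). The part that nearby normal pancreas, lymphoid aggregates or stroma in the low spots have in the other ratios was not tested.

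**Figure D3:**
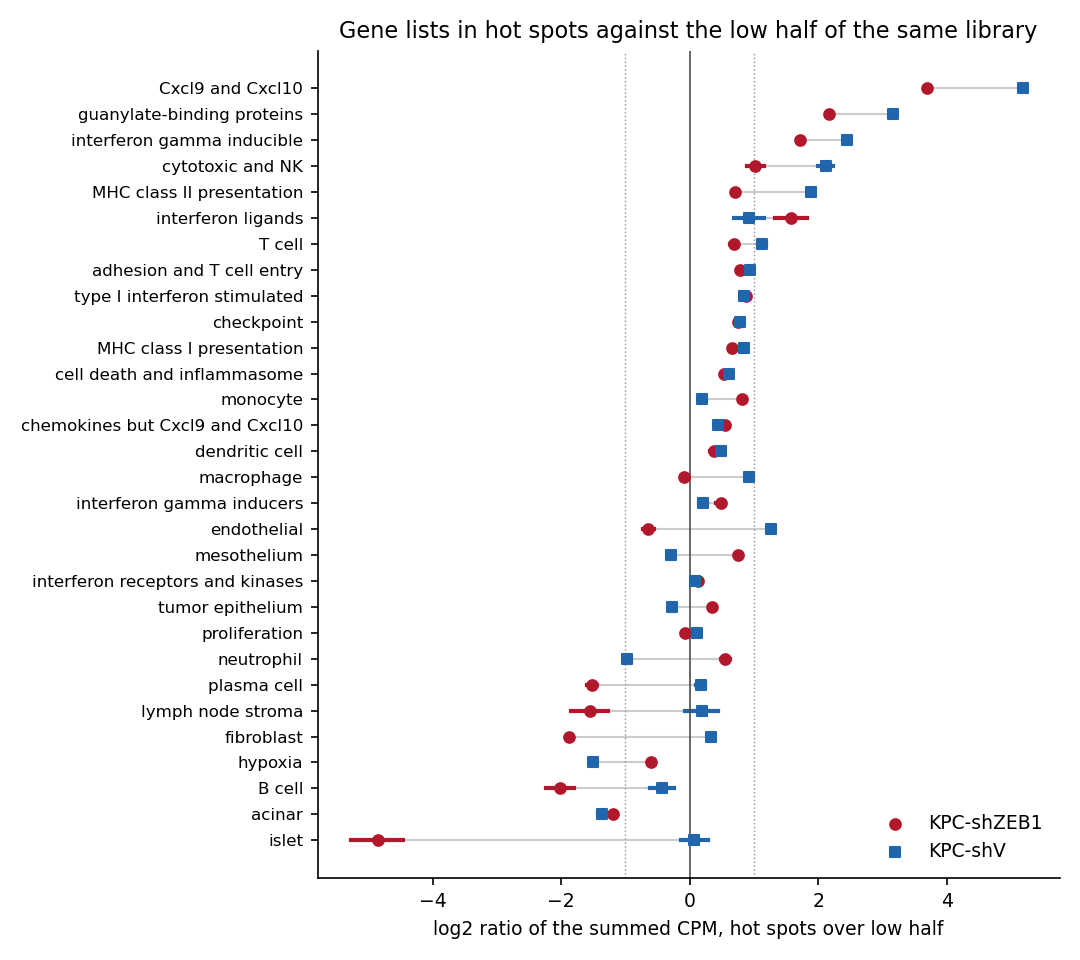
Log2 ratio of the summed CPM of each gene list in hot over low spots, with red circles for the library labelled KPC-shZEB1, blue squares for that labelled KPC-shV, bars for the 95% counting interval and dotted lines at 2-fold. The interferon-γ inducible list lies to the right in both (1.72 and 2.45), whereas the endothelial, fibroblast and neutrophil lists lie on opposite sides of 0.

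All eligible spots were also placed in 10 nearly equal steps of the pair's level, the tenth holding 134 and 285 spots, all of them hot spots. The interferon-γ inducible sum was higher at every step than at the one before in the library labelled KPC-shZEB1, from 1087 CPM in the lowest to 10805 CPM in the highest. In that labelled KPC-shV it stayed at 1066 and 1061 CPM in the lowest steps, and reached 4692 CPM in the ninth and 7426 CPM in the tenth. Fibroblast genes in the library labelled KPC-shZEB1 peaked in the third step, at 16375 CPM, and were lowest in the tenth, at 3365 CPM. Endothelial genes in that labelled KPC-shV were lowest in the third step, at 151 CPM, and highest in the tenth, at 448 CPM. Hypoxia genes there were highest in the third, at 2816 CPM, and lowest in the tenth. The low spots were thus not uniform, and spots with the fewest chemokine UMIs differed from those just above them in stroma.

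**Figure D4:**
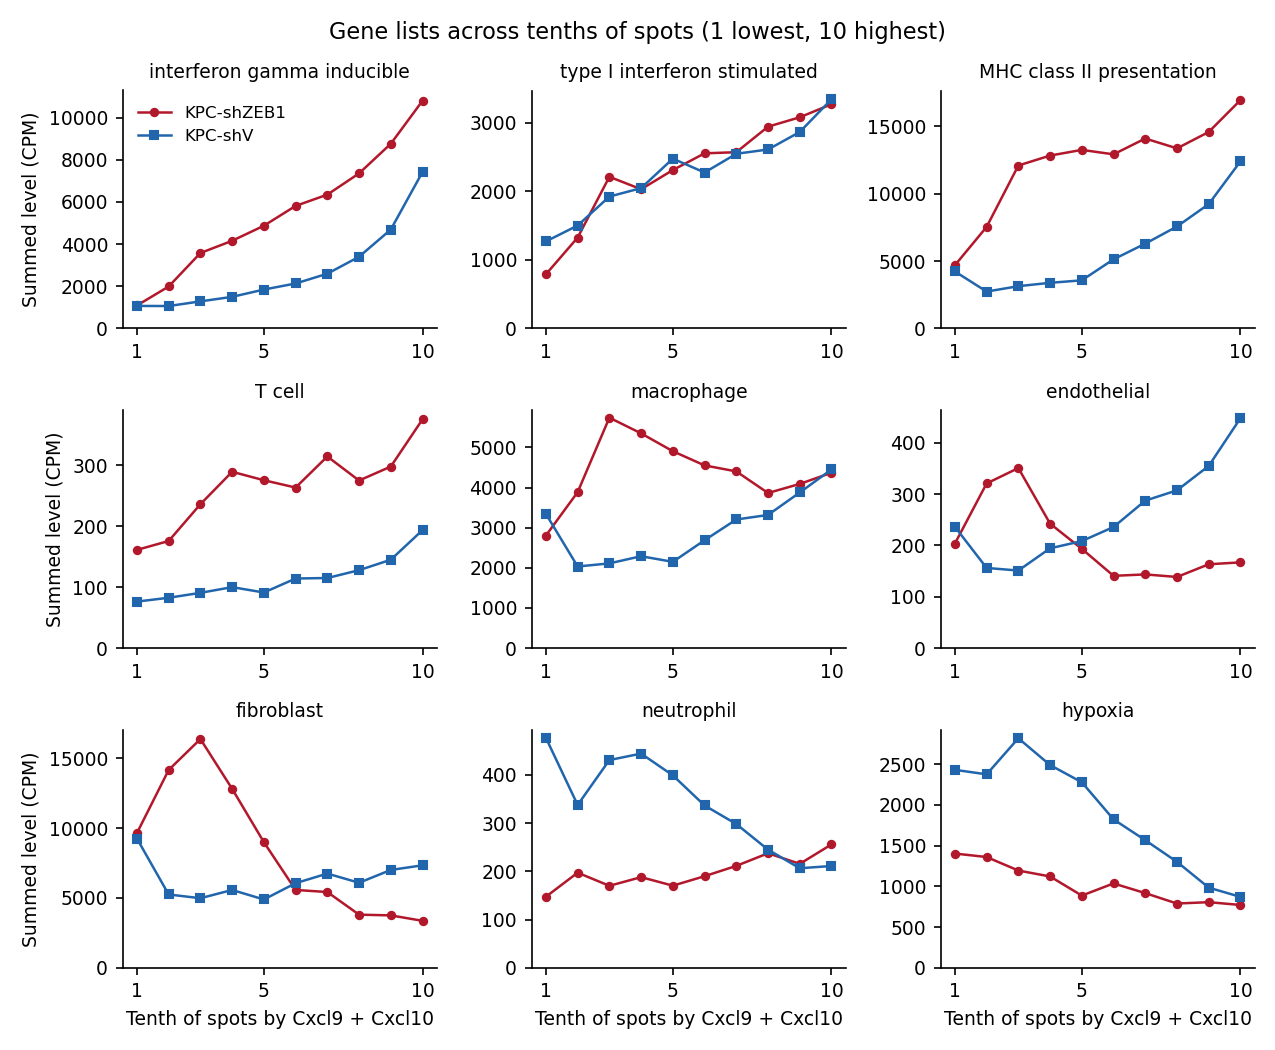
Summed CPM of 9 gene lists in 10 nearly equal steps of the eligible spots of each library, ordered from the lowest (1) to the highest (10) level of Cxcl9 plus Cxcl10; each axis starts at 0. The interferon-γ inducible list reaches 10805 CPM (KPC-shZEB1, red) and 7426 CPM (KPC-shV, blue) in the tenth, the endothelial list is highest there in blue (448 CPM), and the fibroblast list is lowest there in red (3365 CPM).

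Between the hot spots of the libraries, 201 of 9996 genes (2.01%) were past 2-fold higher in the library labelled KPC-shZEB1 and 330 (3.3%) past 2-fold lower, with a median log2 ratio of -0.054. Cxcl9 was higher by 1.02 and Cxcl10 by 0.69 on the log2 scale, which the higher limit in that library enters. With the KPC-shV limit in both, Cxcl9 was at 0.31 and Cxcl10 at -0.15. Interferon-γ inducible genes differed by 0.54 (0.16 with the KPC-shV limit in both), guanylate-binding proteins by 0.71 (0.25), MHC class I genes by 0.12 (0.022) and MHC class II genes by 0.45 (0.25). Type I genes differed by -0.03, with either sign in other settings. Ifng was higher by 1.34, and by 0.40 with the KPC-shV limit in both, and cytotoxic genes were at 0.18, and at -0.07 with that limit. T cell genes summed differed by 0.95 (0.70 with the KPC-shV limit in both). Among single genes Cd3g (2.12, and 1.83 with that limit), Cd8a (1.59, and 1.58) and Xcl1 (1.67, and 1.13) were higher in the library labelled KPC-shZEB1, and Trbc1 (-1.16, and -1.32) and Gzma (-0.55, and -0.80) were lower. Endothelial genes (-1.43, and -1.54 with the KPC-shV limit) and fibroblast genes (-1.13, and -0.83) were lower there. The acinar list was higher by 3.33, with 13 of 13 genes past 2-fold, although the rule limited acinar signal.

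Genes named by size between the libraries included several acinar ones. Trbv17, a T cell receptor variable segment, was at 53.8 against 1.74 CPM (log2 ratio 4.95), and the acinar protease genes Cela2a (4.14) and Cela3b (3.85) followed. Lowest were Mcpt8, a basophil protease, at 26.2 against 195 CPM (-2.89), and Fabp4, a fatty acid carrier of fat and capillary cells, at 12.5 against 81.1 CPM (-2.70). Apoa1 was at 10.9 against 59.4 CPM (-2.45), with 32.8% of its UMIs in the hot spots of the library labelled KPC-shV in 1 spot.

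Spots were also compared at matched chemokine levels. At or above 3000 CPM of the pair, 90 spots (6.67% of those eligible) in the library labelled KPC-shZEB1 and 25 spots (0.875%) in that labelled KPC-shV had interferon-γ inducible sums of 11399 and 11694 CPM. T cell sums there were 376 and 383 CPM, type I sums 3284 and 5063 CPM and fibroblast sums 3373 and 9858 CPM. Among spots with 1000 to 3000 CPM (505 and 308 spots, 37.4% and 10.8%), the pair averaged 1755 and 1586 CPM, the interferon-γ inducible sum was 7542 and 6786 CPM, and the type I sum 2860.4 and 3144 CPM. T cell genes stood at 300.0 and 177 CPM, cytotoxic genes at 61.4 and 64.1 CPM and macrophage genes at 4215 and 4352 CPM. Fibroblast genes were at 4409 and 7094 CPM and endothelial genes at 151 and 423 CPM.

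At lower chemokine levels the order of several lists was another. Spots with 300 to 1000 CPM of the pair had interferon-γ inducible sums of 4864 and 3683 CPM, and those with 100 to 300 CPM had 3664 and 2121 CPM. Macrophage genes in the latter stood at 5751 and 2615 CPM and fibroblast genes at 16330.2 and 5873 CPM, the reverse of the fibroblast order in the upper ranges. Below 100 CPM, fibroblast genes were at 12428 and 6016 CPM and interferon-γ inducible genes at 1606 and 1243 CPM. The libraries thus lay closest in interferon-γ inducible level in the highest range, and their fibroblast order turned round between the lowest and the highest ranges.

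Hot spots were compared with the spots richest in T cell, cytotoxic and macrophage genes. The 10% of eligible spots richest in T cell genes included 17 of 135 hot spots under the KPC-shZEB1 label (12.6%, exact interval 7.51 to 19.4), against 9.35% of low spots. In that labelled KPC-shV they included 72 of 286 hot spots (25.2%, interval 20.3 to 30.6) against 6.09% of low spots. Spots richest in cytotoxic genes included 20% and 37.1% of hot spots, against 6.53% and 3.85% of low spots. Those richest in macrophage genes included 5.19% of hot against 12.5% of low spots under the KPC-shZEB1 label, and 13.3% against 8.68% under the KPC-shV label. By contrast, 54.8% and 68.5% of hot spots were among those richest in interferon-γ inducible genes. No hot spot of 135 was among the fibroblast-richest in the library labelled KPC-shZEB1. A limit of 3 counts of the total allows a share of up to 2.22% there, and the exact interval reaches 2.7%. None of 286 was among the most hypoxic in that labelled KPC-shV, where the same limit allows up to 1.05% and the exact interval reaches 1.28%.

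The pair and its inducible genes were compared between hot spots inside and outside the T cell-richest 10%. Inside, in 17 and 72 spots, the pair was at 4539 and 2414 CPM and interferon-γ inducible genes at 11958 and 9986 CPM. Outside, in 118 and 214 spots, the pair was at 3468 and 1702 CPM and the inducible genes at 10636 and 6789 CPM. Ifng was at 54.6 CPM inside and 13.1 CPM outside under the KPC-shZEB1 label, but 48 of the 55 UMIs inside lay in 1 spot. Without that spot Ifng inside was at 7.42 CPM (exact Poisson interval 2.98 to 15.3), below the level outside. Under the KPC-shV label it was at 17.2 CPM inside and 4.58 CPM outside, and at 13.9 CPM (10.1 to 18.7) without the spot with most Ifng. In the 118 and 214 T cell-rich spots that were not hot, Ifng was at 9.16 and 1.78 CPM and the inducible genes at 6780.3 and 2819 CPM. Macrophage genes in the last group of the library labelled KPC-shZEB1, at 10896 CPM, and fibroblast genes, at 18483 CPM, were above those of the hot spots inside (7366 and 6197 CPM). Under the KPC-shV label the order was the other way, with macrophage genes at 5734 against 7549 CPM and fibroblast genes at 12609 against 13514 CPM. MHC class II genes in that group, at 25399.8 and 10835 CPM, were above those of the hot spots outside (15736 and 10191 CPM) and below those of the hot spots inside (25879 and 21382 CPM). Spots richest in macrophage genes but not hot had 734 and 279 CPM of the pair, and 6380.4 and 3542 CPM of the inducible genes.

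Single spots stood out. The spot with most Ifng in the library labelled KPC-shZEB1, at 755 CPM, also had the highest Cxcl9 of all hot spots, 7865 CPM, with 1133 CPM of Ccl5, 440.4 CPM of Trbv17, 142 CPM of Cd3e and 78.6 CPM of Cd8a, and no UMI of the granule protease Gzmb. The highest Ifng spot of the library labelled KPC-shV held 11 of 114 Ifng UMIs (246 CPM), with 2170.4 CPM of Cxcl9.

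Hot spots also varied in the balance of the chemokines. When those of a library were divided by the share of Cxcl9 in the pair (143 and 143 spots in that labelled KPC-shV), the type I interferon list differed by 0.44 (Cxcl10-rich over Cxcl9-rich) in that library and by 0.043 in the other, and its most abundant gene Bst2 by 0.024 and 0.026. A few of its genes differed more. Under the KPC-shV label, Rsad2 was at 145 against 16.8 CPM (log2 ratio 3.11, interval 2.86 to 3.37), Cmpk2 at 116 against 23.5 CPM (2.31) and Ifit3 at 86.2 against 20.6 CPM (2.07). These genes, and Ido1 and Xcl1 below, were chosen after their values were seen. Few spots carried the difference, since without the 10 highest spots Rsad2 was at 25.4 against 16.8 CPM (0.60) and Ifit3 at a ratio of 0.62. In the library labelled KPC-shZEB1 (67 and 67 spots), Rsad2 was at 33.8 against 18.1 CPM (0.90), at 0.42 (interval -0.024 to 0.87) without 1 spot, and at 11.2 against 11.8 CPM (-0.071) without the 10 highest, which turns the direction. Ido1 was lower on the Cxcl10-rich side in both, at 63.2 against 112 CPM (-0.82) and 22 against 35.1 CPM (-0.67), and Xcl1 higher, at 64.3 against 39.3 CPM (0.71) and 24.3 against 9.54 CPM (1.35).

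Beyond the lists, 10 genes with the largest ratios in both libraries were taken by size alone. Gm4841 was at 133.8 against 23.9 CPM (log2 ratio 2.48) and 81.9 against 4.22 CPM (4.28), and Gm4951 at 346 against 87.1 CPM (1.99) and 205 against 26.1 CPM (2.97). The apolipoprotein L genes Apol10b (2.30 and 3.49) and Apol6 (1.88 and 4.04) were among them. Dnase1l3, a secreted nuclease that digests extracellular chromatin, was at 66.9 against 16.2 CPM (2.04) and 50.7 against 6.04 CPM (3.07), and H2-M2, a nonclassical MHC class I gene, had ratios of 1.87 and 2.45.

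The genes with the smallest ratios in both libraries were likewise taken by size. Mmp3, a matrix metalloproteinase, was at 13.7 against 125 CPM (log2 ratio -3.20) and 5.23 against 34.6 CPM (-2.73). Rhox5, an X-linked homeobox gene, was at 42.8 against 311 CPM (-2.86) and 34.9 against 226 CPM (-2.70). Reg1, a secreted acinar protein, was at 134 against 730 CPM (-2.44) and 35.3 against 130 CPM (-1.88). Ighg2c, an immunoglobulin heavy chain gene, had ratios of -4.87 and -2.39, and F13a1, a coagulation factor gene of resident macrophages, -2.27 and -1.30.

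**Figure D5:**
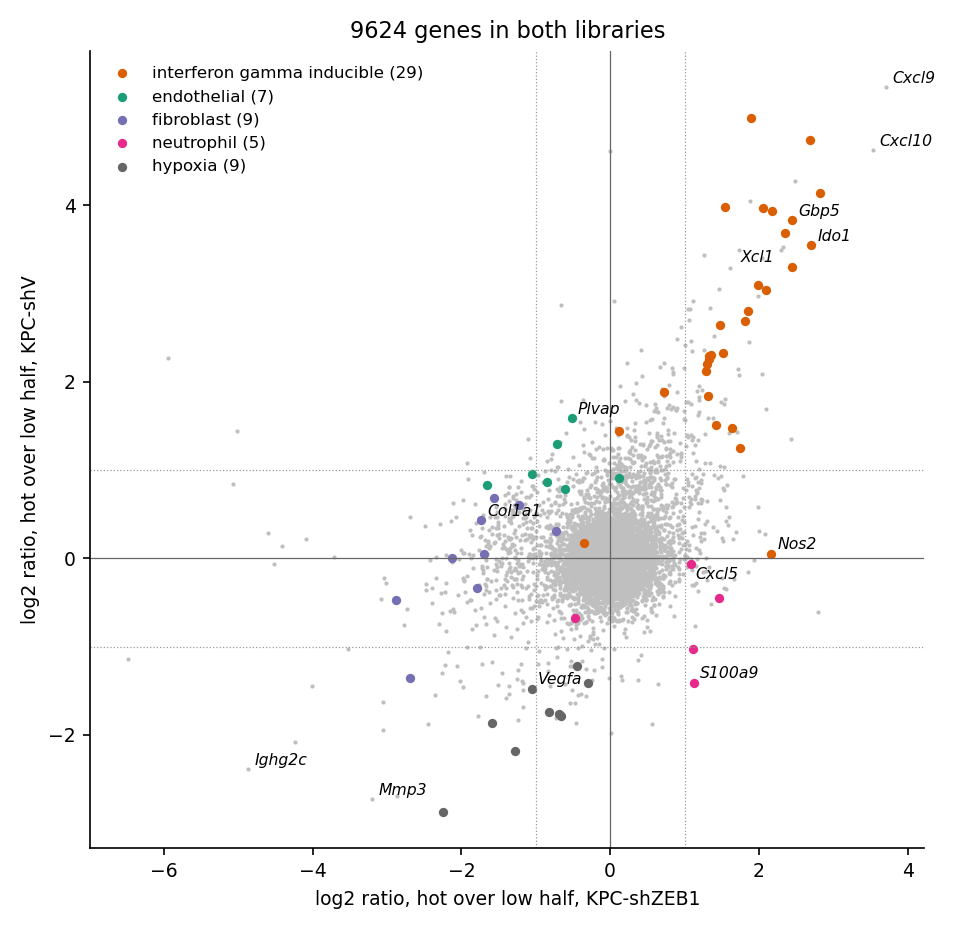
Each of the 9624 points is a gene with at least 10 CPM in hot or low spots of both libraries, placed by its log2 ratio of hot over low spots in the KPC-shZEB1-labelled (x) and the KPC-shV-labelled library (y), with dotted lines at 2-fold and 5 lists in color. Interferon-γ inducible genes (orange) lie mostly upper right, hypoxia genes (dark gray) in the lower left, endothelial and fibroblast genes mostly left of 0, and neutrophil genes such as S100a9 lower right.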

How the data were processed

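For 2 Visium CytAssist libraries the authors deposited unnormalized UMI counts of each gene in each spot; the libraries came from probe hybridization on methanol-fixed frozen tumor sections. Per the submitters' processing notes, Space Ranger 2.0.1 and mm10 were used; only spots over tissue were kept. Probe capture reads chosen stretches of each transcript, so levels of different genes are not comparable. Totals were 140493626 (KPC-shZEB1) and 172059528 UMIs (KPC-shV). Spot positions and images were not used here.

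From these counts, pooled CPM was computed as a group's summed UMIs per 1000000 (Python 3.11.15, numpy 2.4.6, scipy 1.17.1, matplotlib 3.10.9). Intervals are exact Poisson for levels, exact conditional binomial for ratios and Clopper-Pearson for shares, all at 95%. With 1 library per condition no test of the conditions exists, and spots of 1 library are not replicates, so no p-value is given. Genes under 10 CPM in the higher group were not counted. Shares were also taken after thinning each spot to 10000 UMIs. The libraries share 1718 barcodes of the slide's common list, 8 of them hot in both, which were treated as unrelated spots. No doublet caller was run. Scripts were tested on simulated data.

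The members and the 29 gene lists were chosen with earlier results of these data known. Of 19465 features, 11 symbols were repeated (none in a list) and 0 were mitochondrial. Not in the feature list used here were Gbp10, Tgtp1, Tgtp2, Isg15, Mx1, Mx2, Ifnb1 and Cxcl11, among others. Some items are not reported here by name; sums and counts cover all measured members of a list. Named genes were list members, chemokines with 10 CPM in hot spots of either library, the 10 largest and 10 smallest ratios shared by both libraries (at least 20 CPM), the 5 highest and lowest between libraries (at least 50 CPM, 1 direction in every setting), Zeb1, Cxcl16 and Cxcr6. Alternatives changed the depth and acinar limits, the share of spots called hot or low, the ranking gene, the ranking depth, the scaling and the filter, or left out B cell-rich spots. Leaving out fibroblast-rich or hypoxic spots or the hot spot with most Ifng, using the KPC-shV limit in both libraries and comparing at matched levels were added after seeing the data.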

Additional observations from a re-analysis of the deposited data

Results flagged for a closer look

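For 6 gene lists the ratio of hot over low spots had opposite signs in the libraries, with intervals that did not include 0 and values at least 1 apart on the log2 scale; the difference between libraries was not tested, because each condition has 1 library. The log2 ratios, KPC-shZEB1 first, were -1.88 and 0.33 for fibroblast genes, -0.64 and 1.26 for endothelial genes, 0.55 and -0.97 for neutrophil genes, -0.083 and 0.93 for macrophage genes, -1.52 and 0.17 for plasma cell genes, and 0.76 and -0.29 for mesothelial genes. Without B cell-rich spots, the plasma cell and endothelial ratios of the library labelled KPC-shZEB1 were -0.42 and -0.15. Its macrophage ratio ranged from -0.19 to 0.17 over the alternatives. Xbp1, which secretory cells of many kinds use, supplied 89.4% of the plasma cell list's UMIs there, and Msln 98.4% of the mesothelial list's.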

How the results depend on the processing

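Of 353 values past 2-fold, 351 kept their direction and 203 stayed past 2-fold under every alternative run on them (of 18, 17 apply within a library and 16 between libraries). The exceptions were Bank1 in the library labelled KPC-shZEB1 (-1.17), which was 0.048 without B cell-rich spots, and the islet list between libraries (-1.24), which was 0.57 with the top 5% of spots as hot and 0.29 with Cxcl10 alone ranking. With all other 90% of spots in place of the lowest 50%, counts of genes higher and lower were 59 and 258 (main 230 and 538) in the library labelled KPC-shZEB1, 171 and 60 (313 and 123) in that labelled KPC-shV, and 35 (90) higher in both, and the median ratio of interferon-γ inducible genes was 1.08 (1.75) and 1.77 (2.65). With a floor of 2 CPM, lower genes numbered 1116 in the former library, higher and lower genes 504 and 199 in the latter, and 379 and 620 between libraries (201 and 330). With Cxcl10 alone ranking, lower genes numbered 300 and 57, and the medians were 1.50 and 2.32. With the top 5% the medians were 1.90 and 2.84 and higher genes in the library labelled KPC-shV 474; with the top 20% they were 1.57 and 2.35 and 202. Ranking at 10000 UMIs gave a median of 1.62 in the library labelled KPC-shZEB1. The KPC-shV limit in both, added after seeing the data, gave 386 higher genes and a median of 2.04 in that library, and 214 lower genes between libraries. No paired analysis was possible because each condition has 1 library. Depth limits genes under 10 CPM: Cd8a, Ifng and Cxcr3 rest on few UMIs per spot.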
